A study of Homo sapiens with 6 samples.

Results

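The genes described here are 45 genes of mitosis, followed array by array in MCF-10A cells, a nontransformed immortalized line of human breast epithelial cells. They were taken by name from the 19775 genes with at least 1 probe set annotated to that gene alone, and where a gene had several such probe sets, the one whose mean over the 6 arrays was highest stood for it. All 45 were found. Total RNA was labelled and hybridized to Affymetrix Human Genome U133 Plus 2.0 arrays. In the 3 MBD2 arrays the cells carried a lentivirus for MBD2, a protein that binds methylated CpG sites, which had been packaged in HEK293 cells. The 3 control arrays came from MCF-10A cells grown in the same mammary epithelial medium without that virus for MBD2. The study's own descriptions differ: the controls are called not infected in 1 place and empty-virus cells in another, and the replicates technical in 1 place and biological in another. The labels of the 3 MBD2 arrays name the treatment as MBD2 transfection, whereas the methods describe infection with the lentivirus. The infected cells came from 1 cell line, and nothing in the sources used here names separate infections, so the p-values reflect the spread among these 6 arrays alone, which may be technical.

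Mitosis is driven by CDK1 bound to cyclins A and B, which is switched on by CDC25 phosphatases and assisted by the Polo and Aurora kinases. The spindle checkpoint holds the anaphase-promoting complex, a ubiquitin ligase, inactive until the kinetochores of all chromosomes are attached to microtubules. The complex then marks securin and cyclin B for destruction, chromatids separate, and the central spindle sets the site of cytokinesis. Transcripts of these genes rise together in G2 and M phase and are low in cells that have left the cycle, so in tissue and in cultured epithelium they are read as a proliferation signature. The multiprotein DREAM complex represses them in resting cells, and the MuvB core of that complex later joins B-MYB and FOXM1 to activate them.

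MBD2 itself had log2 levels of 12.17, 11.72 and 12.50 on MBD2 arrays 1, 2 and 3, against 8.92, 9.03 and 9.68 on control arrays 1, 2 and 3, so the groups did not overlap. The deposited values are log2 RMA levels, in which 1 unit is a 2-fold difference, and every array had a median of 5.24 over its probe sets. The 6 arrays were not equally far apart. Control arrays 1 and 2 differed at least 2-fold in 5 of the 19775 genes and MBD2 arrays 2 and 3 in 95, while every other pair differed in 1477 to 2886 genes. MBD2 array 1 and control array 3 therefore stood apart from the other arrays of their groups, and the mitosis genes are given for each array before any group mean. Of the 9 basal epithelial markers listed for MCF-10A, 6 were measured, with a median level of 12.67.

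The mitosis genes separated the arrays within both groups. They were low on MBD2 array 1 and on control array 3, high on MBD2 arrays 2 and 3, and in between on control arrays 1 and 2. Their median level was 8.60, 10.59 and 10.46 on MBD2 arrays 1, 2 and 3, against 9.56, 9.55 and 7.63 on control arrays 1, 2 and 3. Over all genes the median level lay between 6.21 on MBD2 array 1 and 6.35 on control array 3, but the normalization holds that median nearly fixed. In RNA from a whole culture, fewer dividing cells and less of these transcripts per cell cannot be told apart.

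Each array was then set against the mean of the other 2 arrays of its group. On MBD2 array 1 the median difference over the 45 genes was -2.13, all 45 were lower, and 41 were at least 2-fold lower, beside 8.46% of all genes. MBD2 array 2 had a median difference of 1.13, with 32 genes at least 2-fold higher beside 1.84% of all genes. On MBD2 array 3 it was 0.99, with 18 genes at least 2-fold higher beside 1.08% of all genes. Since MBD2 array 1 is among the arrays that these last 2 are set against, their differences carry its low values.

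Among the control arrays the same was seen around control array 3. There the median difference was -1.54, all 45 genes were lower, and 34 were at least 2-fold lower, beside 4.31% of all genes. Control array 1 had a median difference of 0.80 and control array 2 of 0.72, with 12 genes at least 2-fold higher on each, beside 0.845% and 0.905% of all genes. No mitosis gene was at least 2-fold higher on MBD2 array 1 or control array 3, and none was at least 2-fold lower on the other 4 arrays. The plot of each array against the others of its group shows the 45 values beside the quartiles of all genes.

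**Figure D1:**
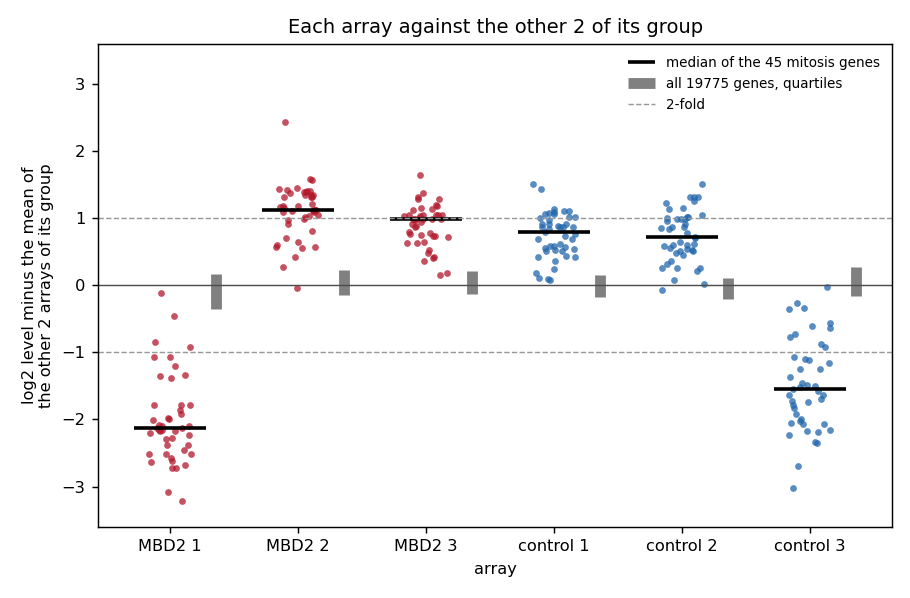
Log2 level of each of the 45 mitosis genes (points) on 1 array minus the mean of the other 2 arrays of its group, for the MBD2 arrays (red) and the control arrays (blue), with black lines for the medians, grey bars for the quartiles of all 19775 genes and dashed lines at 2-fold. The points of MBD2 array 1 and control array 3 lie below 0, around medians of -2.13 and -1.54, while the grey bars of all 6 arrays span 0.

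Taken in pairs across the groups, the sign of the difference depended on which arrays were paired. MBD2 array 1 lay below control arrays 1 and 2 in all 45 genes, with a median difference of -0.98 from each, and above control array 3 in 39, with a median difference of 0.43. MBD2 array 2 had median differences of 1.12, 1.17 and 2.57 from control arrays 1, 2 and 3, and MBD2 array 3 of 1.00, 1.04 and 2.46. By these medians MBD2 arrays 2 and 3 were above each control array, and MBD2 array 1 was above control array 3 and below the other 2.

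Within each close pair the mitosis genes hardly differed. MBD2 array 2 minus MBD2 array 3 had a median of 0.09, and the one gene at least 2-fold apart was MKI67, at 1.21. After it the largest difference of a mitosis gene in that pair was 0.46. Control array 1 minus control array 2 had a median of 0.01, no mitosis gene was 2-fold apart, and the largest difference was 0.37.

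The order of the arrays was shared by most of the genes. Both MBD2 arrays 2 and 3 lay above the other 4 arrays for 41 of the 45 genes, the exceptions being CCNB1, INCENP, ANLN and CKAP2. Control array 3 was the lowest of the 6 arrays for 39 genes and MBD2 array 1 for the other 6, which were CDK1, CDC25C, AURKB, CENPA, PTTG1 and CKAP2. The full order, with MBD2 arrays 2 and 3 above control arrays 1 and 2, those above MBD2 array 1 and that above control array 3, held for 36 genes. The range over the 6 arrays was at least 2 log2 units, that is 4-fold, for 39 of the 45 genes, beside 7.63% of all genes. It was at least 3 log2 units for 14 genes and below 2 for CCNB1, INCENP, CENPA, ECT2, RACGAP1 and CKAP2. The heat map of the members by array shows these bands.

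**Figure D2:**
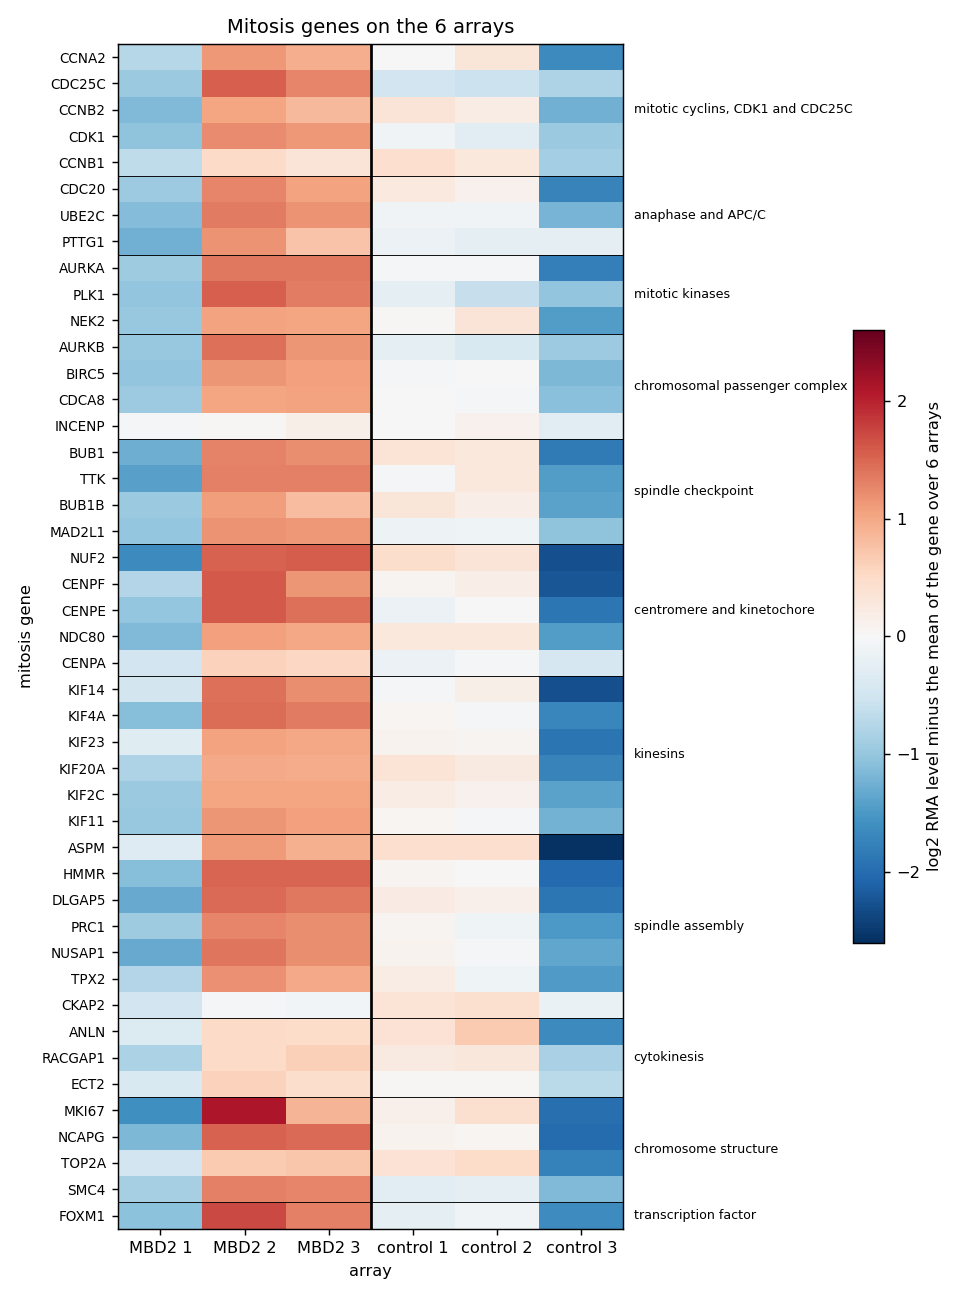
Log2 RMA level of each mitosis gene (rows, grouped by role) on each array (columns, MBD2 arrays left of the line and control arrays right of it) minus the mean of that gene over the 6 arrays, on a scale where red is above and blue below that mean. MBD2 array 1 and control array 3 are blue and MBD2 arrays 2 and 3 red in nearly every row, with INCENP, whose range was 0.45, and CKAP2, whose range was 0.91, as the palest rows.

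What the genes share in sequence was read from their promoters, which the choice of genes did not use. RefSeq windows on GRCh38.p14, 250 bases before to 50 after the annotated start of transcription, were at hand for 38 of the 45 genes and not for AURKA, TTK, BIRC5, TPX2, RACGAP1, UBE2C and FOXM1. Both strands were searched for TTTGAA and TTTAAA, the usual forms of the cell cycle genes homology region, an element bound by the LIN54 subunit of MuvB, and for CCAAT, the core of the site of the factor NF-Y. The 8 genes with TTTGAA whose levels ranged most over the arrays are shown, each with the 30 bases around the motif, read 5′ to 3′ on the strand of the gene, with the motif in capitals. On the strand of KIF14 and ASPM the motif reads TTCAAA, its reverse complement.
MKI67: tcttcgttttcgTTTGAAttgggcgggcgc
NUF2: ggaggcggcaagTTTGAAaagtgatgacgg
CENPF: ccggtggcggctgcgggcagTTTGAAttag
KIF14: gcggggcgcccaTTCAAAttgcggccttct
ASPM: cggatgcaatcaTTCAAAtgaagcgccgcc
NCAPG: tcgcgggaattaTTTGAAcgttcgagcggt
HMMR: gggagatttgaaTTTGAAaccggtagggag
DLGAP5: cggtgcggcaagTTTGAAtttcgtggaggc
INCENP: tgagccttcagtTTTGAAaatcatagtttt

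These stretches lie at chr10:128126435-128126464 on the minus strand for MKI67, chr1:163321958-163321987 on the plus strand for NUF2, and chr1:214603215-214603244 on the plus strand for CENPF. KIF14 lies at chr1:200620733-200620762 and ASPM at chr1:197146765-197146794, both on the minus strand, and NCAPG at chr4:17810932-17810961 on the plus strand. HMMR lies at chr5:163460598-163460627 on the plus strand and DLGAP5 at chr14:55191565-55191594 on the minus strand. The HMMR stretch holds a further copy of the motif directly before the one in capitals, left in lower case. INCENP, at chr11:62123989-62124018 on the plus strand, was added after its values were seen, because it holds the same 6 bases and had the smallest range of the 45 genes. Its level was low, with a mean of 5.23 over the 6 arrays.

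TTTGAA was found in 28 of the 38 promoters (73.7%) and in 15.6% of the promoters of 15384 measured genes. With TTTAAA added the shares were 86.8% of the mitosis genes and 24.0% of all, and between 100 bases before and 50 after the start they were 84.2% and 11.2%. CCAAT was found in 76.3% of the mitosis genes and 41.7% of all, at least 2 copies in 52.6% and 14.5%, and CCAAT together with either 6-base motif in 65.8% and 9.91%. The motif did not sort the mitosis genes by how far their levels ranged. The 32 genes with either 6-base motif near the start had ranges of 0.45 to 4.05 with a median of 2.55, and the 6 without it, AURKB, BUB1, CCNA2, CKAP2, NEK2 and TOP2A, had ranges of 0.91 to 3.12 with a median of 2.48. A match is a string of letters and was not tested for binding in these cells.

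The kinase and cyclins at the head of mitosis were lowest on MBD2 array 1 and control array 3. CDK1, the mitotic kinase, had levels of 9.34, 11.61 and 11.52 on MBD2 arrays 1, 2 and 3, against 10.29, 10.12 and 9.43 on control arrays 1, 2 and 3. CCNB2, a B-type cyclin, had 8.73, 10.92 and 10.74 on the MBD2 arrays, against 10.23, 10.07 and 8.63 on the control arrays, and CCNA2, or cyclin A2, had 7.44, 9.31 and 9.13, against 8.20, 8.49 and 6.52. In these 3 genes MBD2 array 1 lay below control arrays 1 and 2, and the groups overlapped. CDC25C, a phosphatase that activates CDK1, differed in that all 3 control arrays were low, with 5.33, 5.27 and 5.03, while the MBD2 arrays had 4.87, 7.38 and 7.11. CCNB1, or cyclin B1, had the smallest range of these 5 genes, with 10.95, 12.10 and 11.94 on the MBD2 arrays, against 12.03, 11.89 and 10.71 on the control arrays.

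PLK1, the Polo kinase of mitotic entry and spindle assembly, resembled CDC25C, with 5.35, 7.92 and 7.69 on the MBD2 arrays, against 6.13, 5.76 and 5.34 on the control arrays. AURKA, the Aurora kinase of centrosomes and spindle poles, had 10.06, 12.36 and 12.35, against 10.96, 10.96 and 9.21. The centrosome kinase NEK2 had 7.64, 9.67 and 9.65, against 8.67, 8.97 and 7.19. MBD2 arrays 2 and 3 were thus the highest for all 3 kinases, while control array 3 was far below control arrays 1 and 2 for AURKA and NEK2 and within 0.5 log2 units of control array 2 for PLK1. FOXM1, the transcription factor that activates many genes of G2 and M phase, had 7.27, 10.04 and 9.65 on the MBD2 arrays, against 8.09, 8.24 and 6.71 on the control arrays.

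In the chromosomal passenger complex, which corrects faulty kinetochore attachments, 3 subunits were highest on MBD2 arrays 2 and 3 and lowest on MBD2 array 1 and control array 3, and INCENP hardly varied. AURKB, the kinase of the complex, had 5.53, 7.95 and 7.68 on the MBD2 arrays, against 6.28, 6.14 and 5.57 on the control arrays. BIRC5, or survivin, had 8.01, 10.18 and 10.09, against 8.99, 9.05 and 7.86. INCENP, the scaffold of the complex, had 5.20, 5.26 and 5.38, against 5.24, 5.34 and 4.93, and its single probe set ranged over 0.45. Its mean of 5.23 was about the median of all probe sets on an array, 5.24. Its transcript may thus be weakly detected, which was not tested. CDCA8, or borealin, had a range of 2.14.

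The spindle checkpoint genes BUB1, BUB1B, TTK and MAD2L1 ranged over 2.20 to 3.12. BUB1, a checkpoint kinase at kinetochores, had 6.46, 9.01 and 8.94 on the MBD2 arrays, against 8.08, 7.998 and 5.89 on the control arrays. TTK, the kinase MPS1 that starts checkpoint signalling, had 6.03, 8.75 and 8.76, against 7.41, 7.73 and 5.997. For both, MBD2 array 1 was nearer to control array 3 than to control arrays 1 and 2 and lay more than 1 log2 unit below both of these. Of their targets downstream, CDC20, the activator of the anaphase-promoting complex, had 9.07, 11.28 and 11.07 on the MBD2 arrays, against 10.26, 10.12 and 8.27 on the control arrays. The ubiquitin-conjugating enzyme of the complex, UBE2C, had 8.52, 11.01 and 10.81, against 9.56, 9.55 and 8.44. PTTG1, which encodes securin, was the one gene for which MBD2 array 1 and control array 3 were not the lowest arrays. It had 9.83, 12.25 and 11.83 on the MBD2 arrays, against 10.93, 10.83 and 10.86 on the control arrays.

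At the kinetochore, where chromosomes meet microtubules, NUF2 had 6.26, 9.46 and 9.50 on the MBD2 arrays, against 8.38, 8.26 and 5.63 on the control arrays, a range of 3.87. NDC80, its partner in the Ndc80 complex, had 7.73, 9.93 and 9.87, against 9.14, 9.14 and 7.41. Both NUF2 and NDC80 were highest on MBD2 arrays 2 and 3 and lowest on control array 3. CENPE, a kinetochore motor, had 5.09, 7.69 and 7.51, against 5.94, 6.07 and 4.22, and its value on control array 3 was the one mitosis gene value within 1 log2 unit of the highest control probe set for a transcript that was not added, at 3.67, so that value may be bounded by background. CENPF, a large protein of the outer kinetochore, had 8.76, 11.12 and 10.66, against 9.59, 9.68 and 7.30. CENPA, the histone H3 variant of centromeres, had a range of 1.09.

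The 6 kinesins, motors that sort microtubules and chromosomes, ranged over 2.37 to 3.71. KIF14, which acts in cytokinesis, had 9.06, 10.95 and 10.74 on the MBD2 arrays, against 9.49, 9.69 and 7.25 on the control arrays. KIF11, the motor that pushes spindle poles apart, had 8.60, 10.72 and 10.64, against 9.63, 9.55 and 8.35. Control array 3 lay further below control arrays 1 and 2 for KIF14 than for KIF11. KIF23, a subunit of centralspindlin at the central spindle, had 9.22, 10.59 and 10.54, against 9.63, 9.62 and 7.63, so that on MBD2 array 1 it was within 0.5 log2 units of control arrays 1 and 2.

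Among the spindle assembly genes, ASPM, a protein of spindle poles, had 9.21, 10.65 and 10.46 on the MBD2 arrays, against 9.99, 9.98 and 6.97 on the control arrays. HMMR, a spindle protein that is also a hyaluronan receptor, had 9.40, 12.03 and 12.03, against 10.59, 10.53 and 8.50. For ASPM the difference of control array 3 from the mean of control arrays 1 and 2 was -3.02, the furthest down of the 45 genes on that array. CKAP2, a microtubule-associated protein, was the one gene with a lower mean in the MBD2 arrays, with 9.997, 10.48 and 10.42, against 10.86, 10.91 and 10.33. Of the cytokinesis genes, ANLN, or anillin, had 11.65, 12.50 and 12.49 on the MBD2 arrays, against 12.39, 12.68 and 10.35 on the control arrays. ECT2, which acts at the site of cytokinesis, had a range of 1.30, and RACGAP1, the partner of KIF23 in centralspindlin, a range of 1.46.

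Of the genes of chromosome structure, MKI67, which coats mitotic chromosomes and encodes the proliferation marker Ki-67, had the largest range of the 45 genes, at 4.05. Its levels were 5.99, 9.67 and 8.47 on the MBD2 arrays, against 7.72, 7.99 and 5.62 on the control arrays. NCAPG, a condensin subunit, had 6.89, 9.60 and 9.54, against 8.15, 8.12 and 6.06. TOP2A, the topoisomerase that untangles sister chromatids, had 9.81, 10.997 and 11.05, against 10.70, 10.79 and 8.57. SMC4, the ATPase of condensin, had 9.08, 11.25 and 11.21, against 9.66, 9.68 and 8.79, with differences from the other 2 arrays of the group of -2.15 on MBD2 array 1 and -0.88 on control array 3.

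Each set against the other 2 arrays of its group, MBD2 array 1 and control array 3 were not low by the same amount for the same genes. Those references were unlike: minus the control mean, the median over the 45 genes was 1.67 and 1.51 on MBD2 arrays 2 and 3. It was 0.53 and 0.48 on control arrays 1 and 2. In level, MBD2 array 1 was above control array 3 for 39 of the 45 genes. Of the 45 genes, 33 were at least 2-fold lower on both, 8 on MBD2 array 1 only, 1 on control array 3 only, and 3 on neither. The 8 were CDK1, CDC25C, PLK1, AURKB, MAD2L1, CENPA, PTTG1 and SMC4, the single one was ANLN, and the 3 were INCENP, ECT2 and CKAP2. Membership depended on the probe set used. The other probe set of ANLN was lower on both, at -1.74 and -2.41. Also lower on both was 1 other probe set each of CDK1 (-2.55 and -1.05), MAD2L1 (-1.20 and -1.97) and SMC4 (-1.43 and -1.04). The remaining probe sets of these last genes were not 2-fold lower on control array 3. PTTG1, CENPA and PLK1 each rested on 1 probe set. CDC25C was already low on control arrays 1 and 2, at 5.33 and 5.27 beside an array median of 5.24, which may limit its fall on control array 3. For PTTG1 the difference from the other 2 arrays of the group was -2.21 on MBD2 array 1 and -0.020 on control array 3, and for CDC25C it was -2.38 and -0.27. For ANLN it was -0.84 on MBD2 array 1 and -2.19 on control array 3, and for ASPM -1.34 and -3.02. By these differences MBD2 array 1 was further down for 34 genes and control array 3 for 11. Across the 45 genes these differences had a Pearson correlation of 0.26 and a Spearman correlation of 0.17, as a description over genes of the same 6 arrays, which are not independent replicates.

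**Figure D3:**
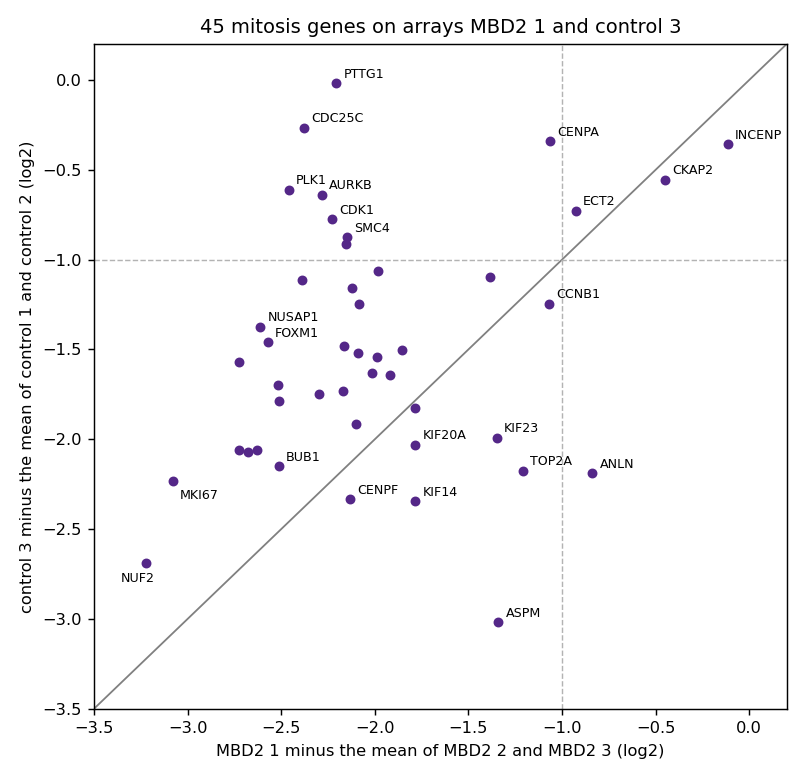
For each of the 45 mitosis genes, the log2 level on MBD2 array 1 minus the mean of MBD2 arrays 2 and 3 (x axis) against the log2 level on control array 3 minus the mean of control arrays 1 and 2 (y axis), with a line of equality and dashed lines at 2-fold. PTTG1 and CDC25C lie near 0 on the y axis at x values of -2.21 and -2.38, and ASPM lies lowest at a y value of -3.02.

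By group means, no mitosis gene was called. Calls were made with limma across all 19775 genes, at an adjusted p under 0.05 and a change of at least 1.5-fold. Of the 45 genes 0 were called higher in the MBD2 arrays, beside 1.25% of all genes, and 0 were called lower, beside 1.5%. At an unadjusted p under 0.05 there were also 0 mitosis genes in either direction, beside 8.69% of all genes higher and 9.59% lower. The rule given in the study's methods, above 1.5-fold or under 0.5-fold of the control mean in each MBD2 array, took 0 mitosis genes in either direction, beside 3.47% and 1.81% of all genes. For 0 of the 45 genes did every MBD2 array lie above every control array, beside 10.4% of all genes.

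The group differences of the mitosis genes were nonetheless almost all in 1 direction. The log2 fold change was above 0 for 44 of the 45 genes, beside 47.0% of all genes, and for 42 after centring on housekeeping genes. Its median was 0.88, beside -0.02 for all genes, and it ran from -0.40 for CKAP2 to 1.44 for KIF14. These 45 signs were not separate pieces of evidence, because they came from the same 6 arrays. The spread within groups was wide, with a median pooled SD of 1.05 for the mitosis genes beside 0.21 for all genes.

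KIF14 averaged 10.25 ± 1.04 on the MBD2 arrays and 8.81 ± 1.36 on the control arrays (SD, n = 3 each), with a standard error of 0.81 on its fold change and an adjusted p of 0.408 from limma. CDC25C, with the lowest adjusted p of the 45 genes, averaged 6.45 ± 1.38 and 5.21 ± 0.16, a log2 fold change of 1.24 with a standard error of 0.66 (limma, adjusted p = 0.385). For PLK1 the means were 6.98 ± 1.42 on the MBD2 arrays and 5.74 ± 0.40 on the control arrays (limma, adjusted p = 0.413). In these genes the difference was smaller than 2 standard errors. MKI67 averaged 8.04 ± 1.88 and 7.11 ± 1.29, a log2 fold change of 0.93 with a standard error of 1.08 (limma, adjusted p = 0.702). CKAP2 averaged 10.30 ± 0.26 and 10.70 ± 0.32, with a standard error of 0.21 (limma, adjusted p = 0.386).

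The count of 0 changed when MBD2 array 1 was left out, which leaves MBD2 arrays 2 and 3, at least 2-fold apart in only 95 genes. Without MBD2 array 1, 10 genes were called higher, which were CDK1, CDC25C, PLK1, AURKB, MAD2L1, CENPA, UBE2C, PTTG1, FOXM1 and SMC4, beside 9.62% of all genes in that fit, and the median log2 fold change of the 45 genes was 1.61. It was 0.47 without MBD2 array 2, 0.50 without MBD2 array 3 and 0.39 without control array 3, with 0 genes called each time. With both MBD2 array 1 and control array 3 left out, 37 genes were called higher, beside 16.7% of all genes, and the median was 1.12. Both fits without MBD2 array 1 were read with the values of these genes known, so their p-values test nothing about the mitosis genes. With near-identical arrays averaged, 0 mitosis genes were called, and 0 of all genes. No mitosis gene was called lower in any of these fits.

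Other probe sets of the same genes gave a further reading of each transcript. Of the 45 genes 20 had 1 probe set and 25 had others, 44 in all. Of these 44, 20 had a Pearson correlation above 0.9 over the 6 arrays with the probe set used and 12 one below 0.5, 23 were at least 2-fold lower on MBD2 array 1 and 20 on control array 3. Among the 25 other probe sets with a mean of at least 6, 19 had a correlation above 0.9. Of these 25, 22 were at least 2-fold lower on MBD2 array 1 than the mean of MBD2 arrays 2 and 3, and 18 were at least 2-fold lower on control array 3 than the mean of control arrays 1 and 2.

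The probe sets of some genes disagreed. Among the 25 brighter ones, the log2 fold change of 8 was more than 1.5-fold away from that of the probe set used, 1 each for ANLN, ASPM, BIRC5, CCNB1, KIF23, MKI67, NCAPG and TOP2A. The other 3 probe sets of MKI67 differed from the other arrays of the group by -2.70, -2.19 and -1.99 on MBD2 array 1, but by -0.39, -0.39 and -0.13 on control array 3, against -2.23 there with the probe set used. Their levels on control arrays 1 and 2 were between 5.43 and 5.96. Their log2 fold changes were 1.97, 1.01 and 1.25, against 0.93 with the probe set used. The other probe set of CCNB1 had 10.42, 12.33 and 12.14 on the MBD2 arrays, against 11.33, 11.35 and 9.55 on the control arrays, a log2 fold change of 0.89 against 0.12 with the probe set used. For ANLN the other probe set gave 1.07 against 0.41, and for TOP2A the brighter of the others gave 1.32 against 0.60. That of KIF23 gave -0.21 against 1.16, and 1 of the 2 of ASPM gave 0.10 against 1.13. On MBD2 array 1 the other probe set of KIF23 was higher than the mean of MBD2 arrays 2 and 3, by 0.61. With the mean of its probe sets, CDC25C had a log2 fold change of 0.44 against 1.24.

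Further genes of cell division, written as lists with earlier results of these data known, were read from the same fit. None of 32 further kinetochore and centromere genes, 38 further spindle, cytokinesis and mitotic entry genes, 19 further condensin and cohesin genes, 14 subunits of the anaphase-promoting complex and 15 subunits of DREAM, MuvB and NF-Y was called in either direction. At an unadjusted p under 0.05, 6 kinetochore genes were higher and 0 lower, and each of the other lists had 1 or 2 genes higher and 0 to 2 lower, beside the 8.69% and 9.59% of all genes. In the list for G1/S and DNA replication, 0 of 42 genes were called higher and 1 lower. That gene was E2F2, an activator of the E2F family, with 6.82, 7.36 and 7.06 on the MBD2 arrays, against 8.07, 8.35 and 8.15 on the control arrays (log2 fold change -1.11, limma, adjusted p = 0.0363). Its adjusted p lay between 0.0142 and 0.163 as each array was left out, and above 0.05 without any array except MBD2 array 1. With the mean of its probe sets its log2 fold change was -0.42 (limma, adjusted p = 0.0972), and the adjusted p was 0.0551 with a trended and robust fit and 0.404 with near-identical arrays averaged. The lists had median log2 fold changes of 0.90 for kinetochores, 0.76 for the spindle, 0.45 for condensin and cohesin, 0.18 for the anaphase-promoting complex, 0.22 for DREAM, MuvB and NF-Y and 0.51 for G1/S.

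Set against the other 2 arrays of their own group, the low arrays differed in these lists. On them 8.46% of all genes (MBD2 array 1) and 4.31% (control array 3) were at least 2-fold lower. On MBD2 array 1, 36 of the 42 G1/S and DNA replication genes were at least 2-fold lower than the mean of MBD2 arrays 2 and 3, with a median difference of -1.72. On control array 3, 7 of the 42 were at least 2-fold lower than the mean of control arrays 1 and 2, with a median difference of -0.57. The further kinetochore genes gave 25 of 32 on MBD2 array 1 and 8 of 32 on control array 3, and the further spindle genes 32 and 19 of 38. By comparison the 45 mitosis genes gave 41 and 34. The references of the low arrays were unlike. Against the mean of the control arrays, the G1/S list had medians of -0.51 on MBD2 array 1 and -0.38 on control array 3. The further kinetochore genes had -0.16 and -0.35, the further spindle genes -0.45 and -0.66, and the mitosis genes -0.55 and -1.03. MBD2 array 1 and control array 3 are each a single sample, so these shares and medians have no test between them.

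Some of the genes in these lists with the widest ranges show both patterns. KNL1, the kinetochore scaffold, had 6.996, 8.99 and 8.97 on the MBD2 arrays, against 7.96, 7.86 and 4.80 on the control arrays. CENPU, a centromere protein, had 5.46, 9.23 and 9.23, against 6.59, 6.68 and 6.83, so that control array 3 was not low for it. Of the replication genes, RFC3, a subunit of the clamp loader, had 6.45, 10.07 and 9.86, against 8.88, 8.81 and 8.23, and POLE2, a subunit of DNA polymerase epsilon, had 5.90, 9.38 and 9.01, against 7.05, 6.35 and 6.65. UHRF1, which brings maintenance methylation to replicated DNA, was low on both arrays, with 8.38, 11.47 and 11.15, against 9.60, 9.45 and 7.85. SPAG5, or astrin of the spindle, had 6.72, 9.75 and 9.54, against 7.85, 7.55 and 6.34, and MYBL2, which encodes B-MYB, had 6.89, 9.16 and 8.90, against 7.70, 7.58 and 7.07.

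Genes of growth arrest had medians above 0 on both low arrays. Of 20 measured, 0 were called, and at an unadjusted p under 0.05 there was 1 higher and 2 were lower. On MBD2 array 1, 6 of the 20 were at least 2-fold higher, beside 5.1% of all genes, and on control array 3 it was 2, beside 3.36%, with median differences of 0.29 and 0.55. GAS1, a growth arrest-specific membrane protein, had 13.14, 8.63 and 8.33 on the MBD2 arrays, against 11.14, 11.11 and 9.19 on the control arrays, so it was high on MBD2 array 1 and low on control array 3. TP53INP1, a p53 target, had 11.56, 9.23 and 9.66, against 10.90, 11.30 and 12.02. PIK3IP1, an inhibitor of PI3-kinase, had 7.99, 6.19 and 6.40, against 8.12, 8.17 and 8.71. For the last 2 genes control array 3 was the highest array. The 16 housekeeping genes had a median difference of -0.22 on MBD2 array 1 and -0.09 on control array 3, and HPRT1, with the widest range of them, had 9.38, 11.42 and 11.14 on the MBD2 arrays, against 9.67, 9.77 and 9.60 on the control arrays.

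**Figure D4:**
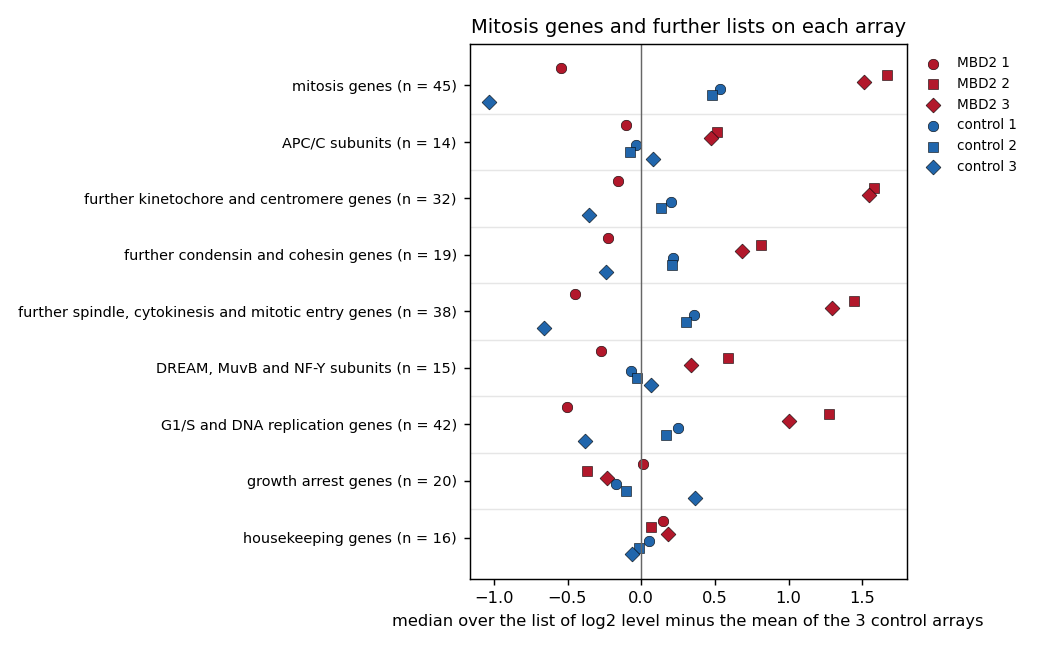
Median over each list of the log2 level minus the mean of the 3 control arrays (x axis), for the mitosis genes and the further lists (rows), on the 3 MBD2 arrays (red) and the 3 control arrays (blue). The mitosis genes spread from -1.03 on control array 3 to 1.67 on MBD2 array 2, while the housekeeping genes stay between -0.06 and 0.18.

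The mean deviation of the 45 genes on each array was -0.92, 1.15 and 1.02 on MBD2 arrays 1, 2 and 3, against 0.08, 0.07 and -1.41 on control arrays 1, 2 and 3. Over the 6 arrays 34 of the 45 genes had a Pearson correlation above 0.95 with this profile, of which they are a part, and CKAP2 had the lowest, at 0.37, followed by INCENP at 0.79 and PTTG1 at 0.81. Among 1259 other genes with a mean of at least 6 and a range of at least 2, 56 had a correlation above 0.95 and 6 below -0.95. The 8 most alike, with correlations of 0.993 to 0.998, were DNA2, CDCA7, DEPDC1B, KIF18B, NCAPD2, NEIL3, CKAP2L and SHCBP1. NCAPD2 is a condensin subunit, KIF18B a kinesin, DNA2 a helicase and nuclease of replication, and NEIL3 a DNA repair glycosylase. CDCA7, a cell division cycle associated gene, had 6.22, 9.78 and 9.20 on the MBD2 arrays, against 7.63, 7.71 and 5.48 on the control arrays.

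Among the 8 genes with the lowest correlations, -0.97 to -0.95, were ABCA1, CHMP1B, ATP2B4, AGO4, TMEM45A, TP53INP1 and PSD3. ABCA1, a cholesterol exporter, had 9.69, 7.10 and 7.11 on the MBD2 arrays, against 8.44, 8.41 and 9.49 on the control arrays. In this gene MBD2 array 1 and control array 3 were the highest of the 6 arrays. These correlations describe 6 arrays, 2 pairs of which were nearly the same, and carry no test.

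Control probe sets also differed between the arrays, the labelling controls in the opposite order to the mitosis genes at both ends. The labelling controls, Bacillus transcripts that are added to the RNA before labelling, averaged 7.79, 7.13 and 7.22 on MBD2 arrays 1, 2 and 3, against 7.31, 7.62 and 8.12 on control arrays 1, 2 and 3. They were highest on control array 3 and MBD2 array 1, where the mitosis genes were lowest, and lowest on MBD2 arrays 2 and 3, where the mitosis genes were highest. The hybridization controls averaged 10.96, 9.94 and 10.01 on the MBD2 arrays, against 11.16, 11.33 and 11.003 on the control arrays, and so set MBD2 arrays 2 and 3 apart from the other 4. With the level of these controls as a block, a fit that compares MBD2 array 1 alone with the control arrays, the median log2 fold change of the 45 genes was -0.55. The part of these differences in the values of the mitosis genes was not tested.

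RNA integrity was read from control probe sets at both ends of 2 transcripts. The 3′ minus 5′ difference of GAPDH was 1.84, 1.49 and 1.52 on the MBD2 arrays, against 2.03, 2.52 and 1.83 on the control arrays. For ACTB it was 3.93, 3.45 and 3.44, against 3.95, 4.57 and 3.62. Both were smallest on MBD2 arrays 2 and 3, where the mitosis genes were highest. They were largest on control array 2, where the mitosis genes were within 0.37 log2 units of their levels on control array 1. The part of RNA integrity in the mitosis gene values was not tested. Of the 8 fibroblast markers, 3 were at least 2-fold higher on MBD2 array 1 than the mean of MBD2 arrays 2 and 3, beside 5.1% of all genes. The median difference over these markers was 0.29. Their log2 summed level was 13.16 on MBD2 array 1, against 10.18 to 11.01 on the other 5 arrays, and most of that sum came from DCN. DCN, or decorin, had 12.57, 7.59 and 8.54 on the MBD2 arrays, against 9.74, 9.60 and 8.43 on the control arrays, and the sum was not raised on control array 3, at 10.18. The part of these markers in the mitosis gene values of MBD2 array 1 was not tested.

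**Figure D5:**
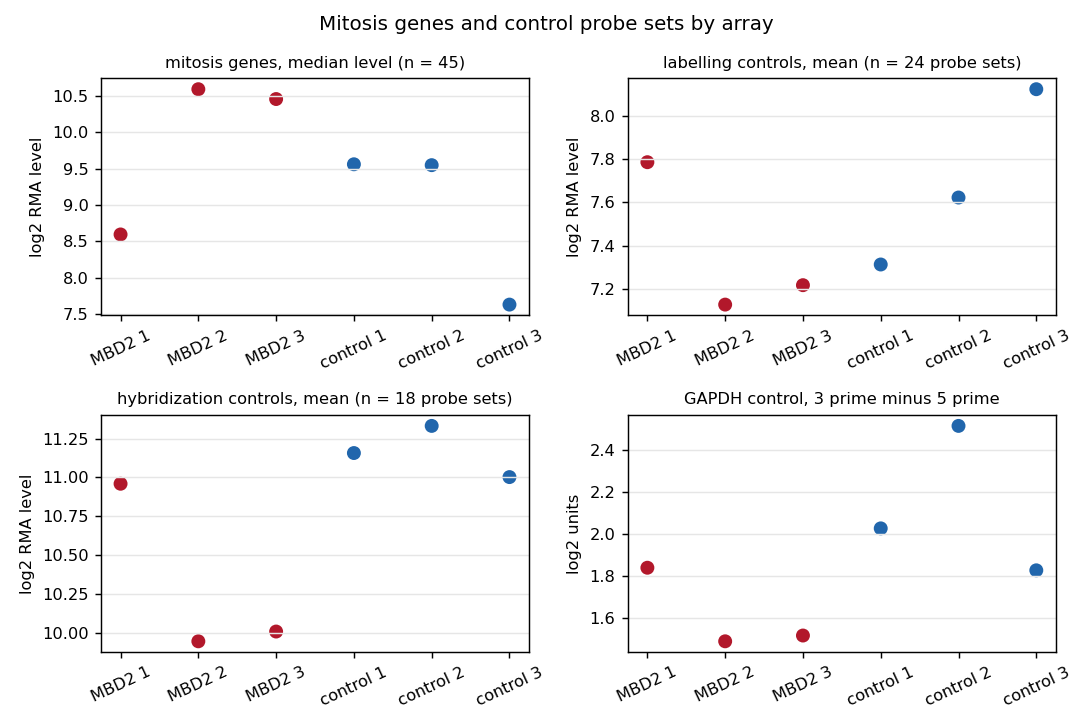
Median log2 RMA level of the 45 mitosis genes, mean log2 level of 24 labelling control and 18 hybridization control probe sets, and the log2 difference between the 3′ and 5′ control probe sets of GAPDH, on each MBD2 array (red) and each control array (blue). The labelling controls are highest on control array 3, at 8.12, and MBD2 array 1, at 7.79, where the mitosis genes are lowest, at 7.63 and 8.60.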

How the data were processed

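RNA from MCF-10A cells was measured on 3 MBD2 and 3 control Affymetrix U133 Plus 2.0 arrays. The authors deposited log2 values per probe set, normalized by RMA with the affy package per the submitters' processing notes, which give no versions, and quantile normalization gave all arrays nearly 1 distribution. Of 54675 probe sets, 41091 had 1 symbol in the platform annotation, 1801 had several, 11721 had none and 62 were controls, and only the first of these kinds entered tests. Comparisons used limma 3.58.1 in R 4.3.3 (lmFit and eBayes, 1.96 prior degrees of freedom) with Benjamini-Hochberg adjustment over 19775 genes, and the fit was tested on simulated data. Fold changes are MBD2 minus control. Other values came from Python 3.11.15 with pandas 2.3.3, and plots from matplotlib 3.10.9. Precision is limited by the number of arrays, which give no counts.

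The members, the further lists and the tests were chosen with earlier results of these data known. Named were the 45 genes, MBD2, called or widest-ranging genes of each list, the 8 genes most and least alike, and 8 promoters with TTTGAA by range. DCN and the promoter of INCENP were added after their values were seen. The alternatives are those of the closing section. 1 gene among the 8 least alike is not reported here.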

Additional observations from a re-analysis of the deposited data

How the results depend on the processing

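Of the alternatives run, the count of mitosis genes called higher was 0 in the main fit and in each other setting except 2. As each array was left out it lay between 0 and 10, and it was 37 when MBD2 array 1 and control array 3 were dropped together, both chosen for their mitosis gene values. The count called lower was 0 in every setting run. The median log2 difference of the mitosis genes was 0.88, between 0.74 and 0.88 over other probe set choices, scalings and fits, 0.76 with near-identical arrays averaged, and between 0.39 and 1.61 as each array was left out. It was -0.55 with the hybridization control level as a block, which reduces the comparison to MBD2 array 1 against the controls. On MBD2 array 1, 27 of the 35 genes with a probe set with no s, x or a ending were at least 2-fold lower, against 32 of the same 35 with the probe sets used, and on control array 3 21 of 45 were at least 3-fold lower. The median difference of each array from the other 2 of its group kept its sign under all 5 other probe set choices and scalings, at -2.13 to -1.86 on MBD2 array 1 and -1.54 to -1.45 on control array 3.

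With the hybridization block the log2 fold change was -0.35 for CDC25C, -0.40 for PLK1, -1.12 for MKI67 and -0.59 for CCNB1. CCNB1 was also at -0.020 when centred on housekeeping genes and between -0.30 and 0.47 as each array was left out, and CKAP2 was at 0.13 with the mean of its probe sets. Over all genes, 248 were called higher and 296 lower, against 184 and 397 with housekeeping centring, which moved the median of all genes to -0.16, 0 and 0 by limma with near-identical arrays averaged (738 and 769 at an unadjusted p under 0.05), 152 and 197 with the hybridization block, and 2 to 1903 and 17 to 1123 as each array was left out. With a replicate block the counts were 12 and 51 over all genes and 0 and 0 of the mitosis genes, whose median stayed at 0.88, and E2F2 was no longer called (limma, adjusted p = 0.0802). The replicate numbers pair nothing that the labels name, and deviations of same-numbered arrays correlated at 0.17, -0.27 and 0.21, so not every array was most like its own number. The causes of these changes were not tested. Signals of CENPE near background and single probe sets for 20 genes limit those values.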
